A study of Mus musculus with 14 samples.

Results

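Cerebellar granule and Purkinje cell genes were followed in brainstem libraries that were prepared to read the noradrenergic neurons of the locus coeruleus. The set was 9 named genes of the 55421 in the count table, taken by symbol. Gabra6, Cbln1, Cbln3, Neurod1 and Zic1 stood for granule cells, and Pcp2, Calb1, Car8 and Pvalb for Purkinje cells. The rule names the genes and uses no measured value, but the set was drawn up with earlier results of these data known. All 9 were among the 15081 genes with a mean of at least 1 CPM (counts per 1000000 counts of a library).

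The mice were C57Bl/6 crosses in which every animal, controls included, carried a Th-cre transgene (Cre recombinase under tyrosine hydroxylase control) and Slc6a2-eGFP/Rpl10a, a tagged ribosomal protein under noradrenaline transporter control. At 2 to 3 months of age, P364S mutant human tau was infused into the locus coeruleus of 4 animals (B, C, L and M), and EYFP, a fluorescent protein, into that of 3 (H, I and K). Polyadenylated RNA of each animal's brainstem was sequenced before immunoprecipitation (pre-IP, total homogenate) and after pull-down of the tagged ribosomes (IP), giving 14 libraries: tau pre-IP and tau IP (n = 4 each), EYFP pre-IP and EYFP IP (n = 3 each). Reads of the tau construct numbered 3527 to 47177 in each tau library, so that it was present there as RNA. The labels name no cerebellar sample.

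The cerebellar cortex is built around Purkinje cells, which are its sole output, and granule cells, the small and very numerous neurons whose parallel fibres excite them. Granule cells release cerebellins that bridge presynaptic neurexins to the Purkinje cell glutamate receptor GluD2, and they carry a GABA-A receptor with an alpha6 subunit. Purkinje cells are rich in calcium-binding proteins and in regulators of the inositol trisphosphate receptor. The cerebellum lies directly over the pons that holds the locus coeruleus. Some of the 9 genes are also known from brainstem neurons, above all Pvalb and Calb1, whereas Gabra6 and Pcp2 are the narrowest of the granule and Purkinje markers.

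For Gabra6 and Pcp2, the narrowest of the granule and Purkinje markers, the 250 bases before their starts are shown, 5′ to 3′ in the direction of the gene. RefSeq windows (GRCm38.p6) were found for 6 of the 9 genes, not for Cbln1, Calb1 and Car8. Capitals mark TGCCAA, the half-site of nuclear factor I (NFI), in the Gabra6 window at chr11:42321073-42321322 on the minus strand, and AGGTCA, the half-site of ROR nuclear receptors, in the Pcp2 window at chr8:3625548-3625797 on the minus strand.
Gabra6: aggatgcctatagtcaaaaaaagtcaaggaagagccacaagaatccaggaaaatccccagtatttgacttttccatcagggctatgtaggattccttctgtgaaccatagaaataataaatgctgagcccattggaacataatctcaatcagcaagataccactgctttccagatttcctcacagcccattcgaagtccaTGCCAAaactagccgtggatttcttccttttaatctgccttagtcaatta
Pcp2: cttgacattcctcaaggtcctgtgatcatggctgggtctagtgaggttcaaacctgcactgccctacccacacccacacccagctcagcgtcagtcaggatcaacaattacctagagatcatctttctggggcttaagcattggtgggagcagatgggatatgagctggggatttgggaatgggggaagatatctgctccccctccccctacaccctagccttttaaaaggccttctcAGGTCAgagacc
Both motifs were chosen after the windows had been seen. The NFI letters, on either strand, were in the windows of Gabra6 and Cbln3 and in 12.3% of 32851 windows of this length. The ROR letters were in the Pcp2 window and in 14% of them. The match began 50 bases before the start in Gabra6 and 12 bases before it in Pcp2. These are matches of letters, which do not show binding. Neither motif was in both windows, and a link of these sequences to the levels was not tested.

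Total counts ran from 41843489 to 65664551 per library, so that 3 counts, the floor used here, equalled 0.0457 to 0.0717 CPM. Each of the 9 genes was far above this floor, the lowest being Gabra6 with 132 counts in the pre-IP library of animal M. The floor covers counting error only, since reads copied from the same molecule by PCR were not marked. Some libraries went against their labels or stood apart. EYFP animal K had 408 (pre-IP) and 398 (IP) counts of the tau construct, against 2 to 18 in the other EYFP libraries. Tau animal M was labelled female and had 674 and 1153 counts of Y-linked genes. The IP RNA of animal I had an integrity number of 4.2. Library numbers were up to 11 for B, C, H and I and from 17 for K, L and M. RNA concentrations of the K, L and M homogenates were the lowest of the homogenates, 11.4 to 13.9 ng per microlitre against 16 to 29.9.

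**Figure D1:**
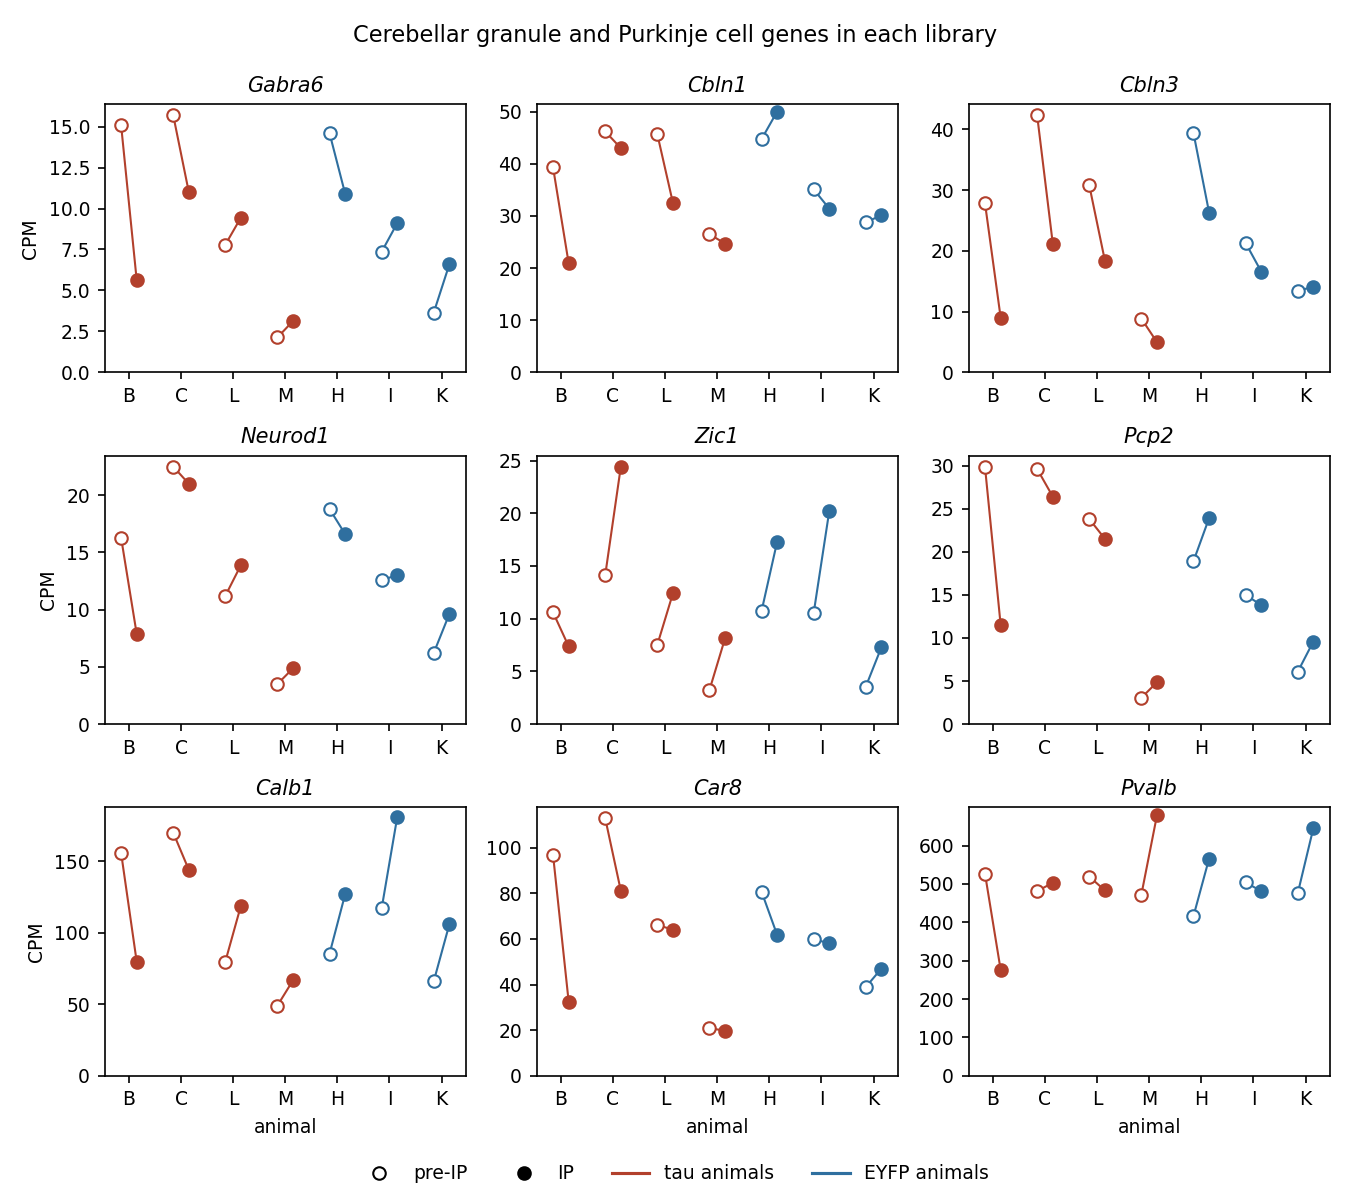
CPM (vertical axis from 0) of the 9 genes in each animal (horizontal axis), with pre-IP as open and IP as filled circles joined by a line, tau animals in red and EYFP animals in blue. Gabra6, Cbln3, Neurod1, Pcp2, Calb1 and Car8 were lowest in animal M in both fractions, while Pvalb lay between 416 and 526 CPM in every pre-IP library.

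In the homogenates, 8 of the 9 genes were lowest in the same 2 animals, 1 of each treatment, and the treatment groups overlapped for all 9. Animals M and K held the 2 lowest pre-IP levels of every member except Pvalb, that is 8 of 9, against 14.7% of all genes. The span from lowest to highest animal was at least 3-fold for 7 of 9 members, against 4.34% of all genes, and its median was 4.78-fold for the 9 and 1.56-fold for all genes. In bulk tissue, fewer cells of a type and less RNA per cell cannot be told apart.

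Gabra6 (ENSMUSG00000020428.13, GRCm38 chromosome 11, 42306437 to 42321072) encodes the alpha6 subunit of the granule cell GABA-A receptor. Its pre-IP levels in the tau animals were 15.1 CPM in B, 15.7 in C, 7.79 in L and 2.13 in M. In the EYFP animals they were 14.6 in H, 7.36 in I and 3.65 in K. Both groups thus held high and low animals, and the extremes, C and M, were both tau animals, 7.38-fold apart.

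The cerebellins are secreted organizers of the parallel fibre synapse. Cbln3 (chromosome 14, 55878913 to 55884392) had 27.8, 42.3, 30.8 and 8.85 CPM in tau pre-IP (B, C, L, M) and 39.4, 21.3 and 13.4 in EYFP pre-IP (H, I, K). Cbln1 (chromosome 8, 87468405 to 87472609), which is also transcribed outside the cerebellum, had 39.3, 46.2, 45.7 and 26.5 CPM in tau pre-IP and 44.7, 35.1 and 28.8 in EYFP pre-IP. M and K were again the lowest for both, but the span was 4.78-fold for Cbln3 and only 1.74-fold for Cbln1.

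The transcription factors of the granule lineage were Neurod1 (chromosome 2, 79452521 to 79456751), which drives granule cell differentiation, and Zic1 (chromosome 9, 91358058 to 91365810), a zinc finger factor of granule cells and their precursors. Neurod1 had 16.3, 22.5, 11.2 and 3.5 CPM in tau pre-IP and 18.8, 12.6 and 6.22 in EYFP pre-IP. Zic1 had 10.6, 14.1, 7.51 and 3.21 CPM in tau pre-IP and 10.7, 10.5 and 3.54 in EYFP pre-IP. The spans were 6.44-fold and 4.4-fold, with the top value in animal C and the bottom value in animal M for both. Cerkl, on the same strand, shares 201 bases with Neurod1, 7.37% of its exons, and had at most 0.819 CPM.

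Pcp2 (ENSMUSG00000004630.18, chromosome 8, 3623371 to 3625545), a regulator of G protein signalling found in Purkinje cells and retinal bipolar cells, had the widest span of the 9, 9.78-fold. It had 29.8, 29.6, 23.8 and 3.05 CPM in tau pre-IP (B, C, L, M) and 18.9, 15 and 6.06 in EYFP pre-IP (H, I, K). Animals B, C and L were above all EYFP animals and M below them. On the opposite strand Pet100 shares 941 bases with the exons of Pcp2, 51.5% of them, and had 36 to 153 CPM. Whether counting used strand is not given in the sources used here, so Pcp2 levels are uncertain to that extent.

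Car8 (chromosome 4, 8143362 to 8239041), a carbonic anhydrase relative that binds the inositol trisphosphate receptor, had 96.8, 113, 66.1 and 20.9 CPM in tau pre-IP and 80.8, 59.9 and 38.9 in EYFP pre-IP. Calb1 (chromosome 4, 15881264 to 15908064), the calcium buffer calbindin, had 156, 170, 79.8 and 49.1 CPM in tau pre-IP and 85.3, 117 and 66.1 in EYFP pre-IP. Pvalb (chromosome 15, 78191114 to 78206400), the calcium buffer parvalbumin, had 526, 481, 519 and 472 CPM in tau pre-IP and 416, 504 and 475 in EYFP pre-IP. Car8 and Calb1 spanned 5.44-fold and 3.47-fold with M lowest, while Pvalb spanned 1.26-fold with H lowest.

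**Figure D2:**
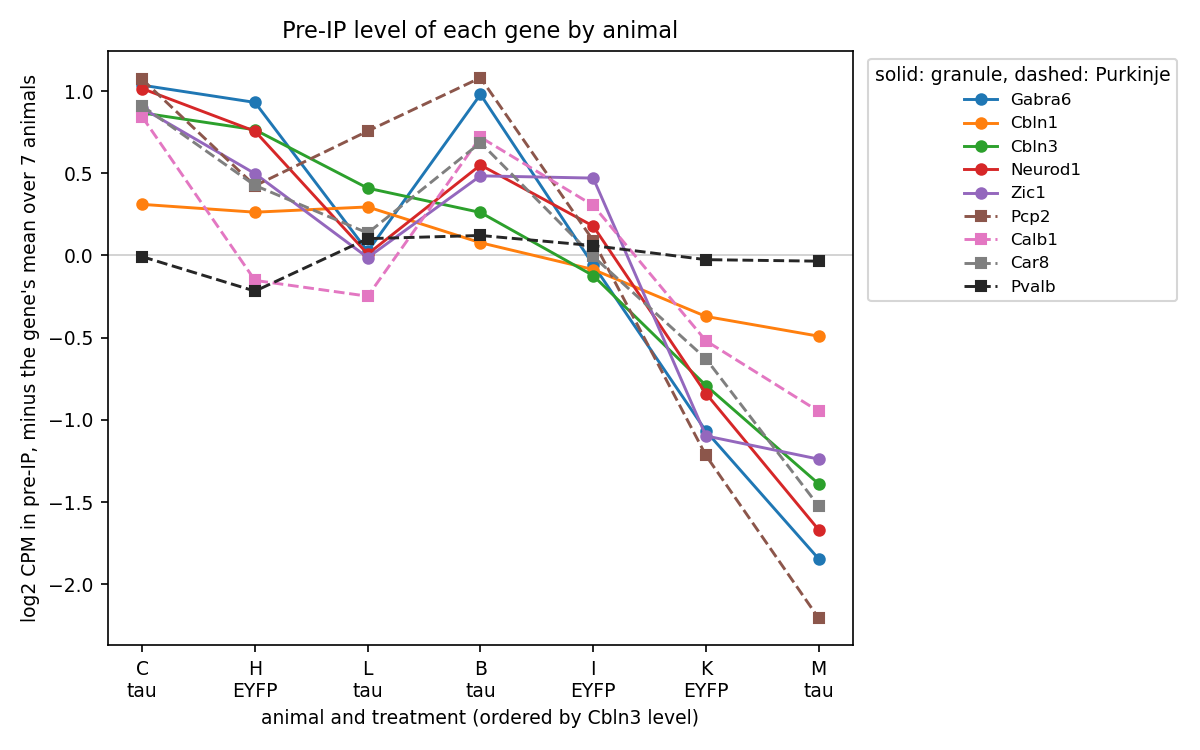
Pre-IP level of each gene as log2 CPM minus the gene's mean over the 7 animals (vertical axis), with animals ordered by their Cbln3 level and treatment written below each letter; circles with solid lines are granule and squares with dashed lines Purkinje genes. Animals K and M on the right are lowest for every gene but Pvalb, far down for Pcp2, Gabra6 and Neurod1, less so for Cbln1, while the Pvalb line stays nearly flat.

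Over the 5 pre-IP libraries other than those of K and M the highest level was 2.13 times the lowest for Gabra6, 1.98 times for Pcp2, 2.01 times for Neurod1 and 1.9 times for Car8. The median span over the 9 was then 1.98-fold, beside 1.44-fold for all genes. K and M were left out after they had been seen to be lowest, so that a narrower span follows from the choice. By library number, all 4 animals numbered up to 11 were above all 3 numbered from 17 for Neurod1, Zic1 and Calb1, 3 of 9 members against 17.9% of all genes, and the ranges overlapped for the other 6. Animal L, from the higher numbers, nonetheless had 23.8 CPM of Pcp2 and 30.8 CPM of Cbln3, inside the range of the lower numbers.

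Sums over markers of other cells differed between the same homogenates. The 6 oligodendrocyte genes summed to 13116 CPM in M and 13333 in K, above the 9928 to 12127 CPM of the other animals, and for 4 of the 6 M and K were the 2 highest. The 6 astrocyte genes summed to 1123 and 1158 CPM, above 748 to 1012, but for 3 of the 6 M and K were not the 2 highest. Without Gfap, which made up most of that sum, the other 5 astrocyte genes gave 380 CPM in M and 421 in K, against 297 to 406. The 6 general neuronal genes summed to 4600 CPM in M and 5068 in K, within the 3842 to 5718 of the others. The sum of the 4 choroid plexus and ependymal genes, mostly Ttr, was 46.8 CPM in M, 148 in L and 1330 in K, where the rest had 800 to 1647. M and L were the 2 lowest for 3 of these 4 genes, the exception being Foxj1 with 18.2 CPM in M and 23.9 in L against 19.2 to 22.6. The shares of all genes with M and K highest, or with M and L lowest, were not counted. All genes of these 4 lists were detected. The part of these differences in the cerebellar levels was not tested.

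Other genes of the same cells, listed with earlier results of these data known, shared the ranking in part. M and K held the 2 lowest pre-IP levels for 7 of 11 further granule genes, 7 of 14 further Purkinje genes and 2 of 6 genes of other cerebellar cells (those with a mean of at least 1 CPM). A span of at least 3-fold was reached by 3, 2 and 1 of them. Others of these genes went the opposite way. M and K held the 2 highest pre-IP levels of Barhl1 (granule), of Lhx5, Dner and Aldoc (Purkinje) and of Gjd2 (other cerebellar cells). Barhl1 had 7.29 CPM in M and 7.06 in K, against 4.9 to 6.28 in the other animals. Aldoc had 3364 and 3540 CPM, against 2075 to 3207. Gabrd, named after its values were seen, is the delta subunit that pairs with alpha6 in granule cell GABA-A receptors. It had 8.49 CPM in M and 9.9 in K, against 35.5 to 46.1 in the other animals.

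Levels were compared between genes per kilobase of exon. The median pre-IP level was 462 CPM per kb for Pvalb, 17.6 for Calb1, 17.1 for Car8, 12.9 for Cbln1, 10.3 for Pcp2, 5.72 for Cbln3, 4.63 for Neurod1, 3.13 for Gabra6 and 1.84 for Zic1. Pvalb, at 400 to 505 CPM per kb, was apart from all others. Every other pair of neighbours in this order overlapped in range, for instance Calb1 (10.1 to 35.1) and Car8 (5.41 to 29.5).

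The profile over all 14 libraries was compared between genes by the root mean square difference of log2 CPM after centring each gene on its own mean, a measure that is small for genes that move by the same amount in the same libraries. The libraries share animals, depth and scaling, so that this is a description. The 5 genes closest to Gabra6 were Neurod1 (0.19), Car8 (0.27), Pcp2 (0.33), Ppp1r17 (0.44) and Gabra4 (0.44), and the median over 15080 genes was 0.89. The 5 closest to Pcp2 were Gabra6 (0.33), Neurod1 (0.36), Hes3 (0.41), Car8 (0.42) and Gm5083 (0.42), with a median of 1.04. Gabra6, Neurod1, Car8 and Pcp2 were thus among each other's 10 closest genes, and Car8 was the closest to Cbln3. None of the 5 closest genes of Cbln1, Zic1, Calb1 or Pvalb was a member. The member closest to Calb1 was Neurod1, at place 593 of 15080, and the one closest to Cbln1 was Pvalb, at place 3817. The same distances can be read as ratios to Gabra6 within a library, whose highest value over the 14 libraries was 1.78 times the lowest for Neurod1, 1.93 times for Car8, 2.37 times for Pcp2 and 2.62 times for Cbln3. It was 3.71 times for Zic1, 3.95 times for Calb1, 4.8 times for Cbln1 and 7.79 times for Pvalb.

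**Figure D3:**
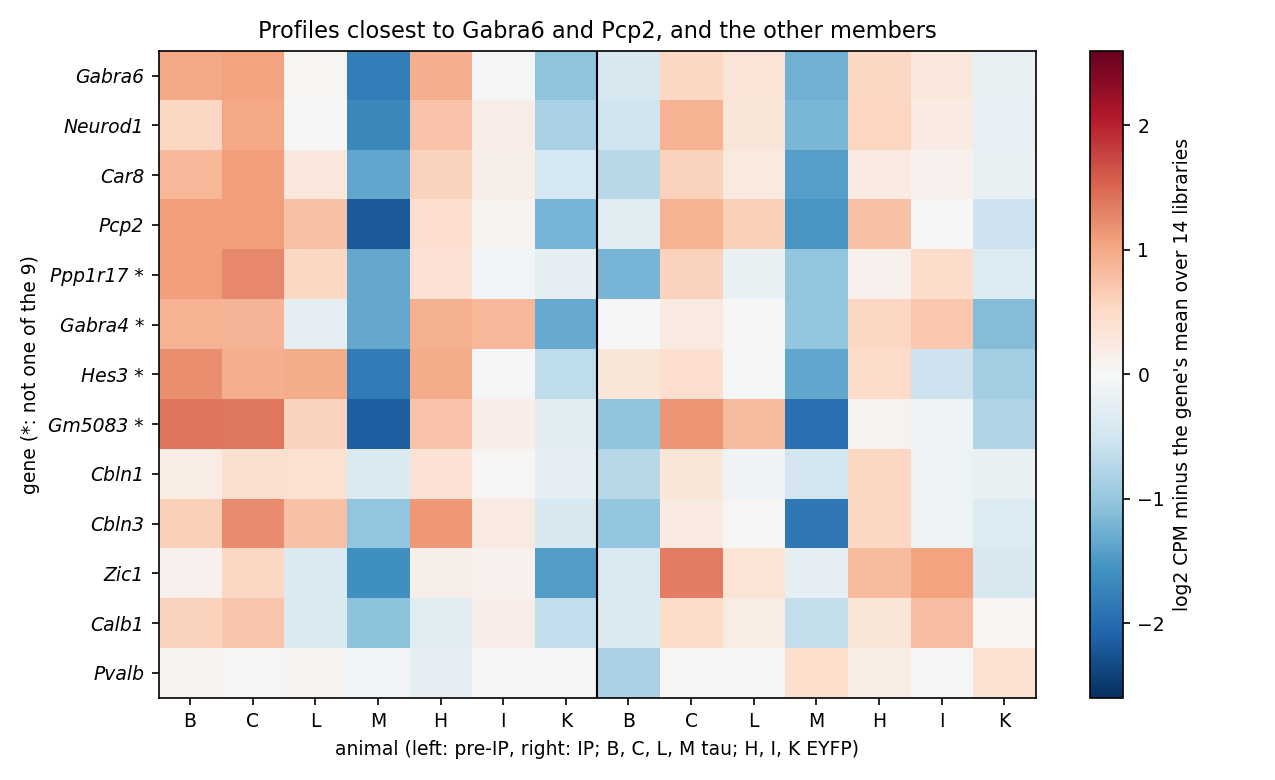
Colour gives log2 CPM minus the gene's mean over 14 libraries (red above, blue below) for Gabra6, Pcp2, the genes closest to them (asterisks where not among the 9) and the other members, by animal, with pre-IP at the left and IP at the right of the line. Gabra6, Neurod1, Car8 and Pcp2 share blue columns for animal M in both fractions and for K in pre-IP, and Pvalb is nearly white in pre-IP.

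None of the 9 genes passed the test between tau and EYFP homogenates. The edgeR log2 fold changes of tau over EYFP in pre-IP ran from 0.11 (Pvalb, SE 0.13) to 0.72 (Pcp2, SE 0.57), all 9 positive with a median of 0.19, where the median over all genes was 0. These sizes rested on single animals: Pcp2 ran from 0.39 without animal K to 1.09 without animal M, Car8 from 0.06 without C to 0.64 without M, and Calb1 from 0.11 without C to 0.61 without I. Without M, 3 members had an unadjusted p under 0.05 and 0 were called. In the fit of all animals the smallest unadjusted p was 0.225, for Pcp2, at an edgeR adjusted p of 1.0. Of all genes 0% passed (0 of 19197), and DESeq2 and limma voom called 0 of the 9 as well. After the filter on low counts, no member had an unadjusted p under 0.05 with any of these tools on all 7 animals. With no filter, edgeR gave 1 member an unadjusted p under 0.05 and called 0. The groups did not overlap for 0 of 9 members and for 2.65% of all genes. Within library-number ranges, mean tau over mean EYFP was 1.75 for Pcp2 in the lower (tau B, C and EYFP H, I) and 2.22 in the higher (tau L, M and EYFP K). For Calb1 these were 1.61 and 0.975. The higher range held 1 EYFP animal.

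All 9 genes were detected in every IP library, and the cells that this RNA came from were not tested. Dbh, Th and Slc6a2, the noradrenergic genes that the tagged ribosomes should enrich, rose from pre-IP to IP by 4.24 (SE 0.92, edgeR adjusted p 0.00259), 2.40 (SE 0.49, edgeR adjusted p 0.00189) and 4.04 (SE 0.86, edgeR adjusted p 0.00236) on the log2 scale. These values pool unlike groups. The ratio of IP over pre-IP was 8.47 to 118 in tau and 2.11 to 3.48 in EYFP animals for Dbh. For Th it was 3.46 to 15.9 and 1.62 to 2.03, and for Slc6a2 6.4 to 119 and 2.03 to 3.86. In the edgeR fit of these fold changes, which did not pair the fractions of an animal, 0 of the 9 members were called. Of all genes 31.0% were. Zic1 alone had an unadjusted p under 0.05 in that fit, and DESeq2 and limma voom called 0 of the 9. The median log2 fold change of the 9 was -0.08, with 6 negative and 3 positive, and that of all genes -0.004. With the animal as a block, so that each IP was set against its own homogenate, 2 of 9 members were called against 32.6% of all genes: Zic1 rose and Cbln3 fell.

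Zic1 in IP had 7.37, 24.4, 12.4 and 8.13 CPM in tau animals (B, C, L, M) and 17.3, 20.2 and 7.28 in EYFP animals (H, I, K). Its IP over pre-IP ratio was 0.697 in B, 1.73 in C, 1.66 in L, 2.54 in M, 1.61 in H, 1.93 in I and 2.06 in K, above 1 in 6 of 7 animals. The log2 fold change was 0.74 (SE 0.34, edgeR adjusted p 0.111), and with the animal as a block 0.77 (SE 0.17, edgeR adjusted p 0.00455). With the library-number range as a covariate it was 0.80 (edgeR adjusted p 0.0123). Zic4, on the opposite strand, shares 60 bases, 1.05% of the exons of Zic1.

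Cbln3 in IP had 9.01, 21.2, 18.4 and 4.97 CPM in tau animals and 26.3, 16.6 and 14.1 in EYFP animals. Its ratio was 0.324 in B, 0.502 in C, 0.597 in L, 0.562 in M, 0.667 in H, 0.778 in I and 1.05 in K, below 1 in 6 of 7 animals. The log2 fold change was -0.69 (SE 0.34, edgeR adjusted p 0.137), and with the animal as a block -0.67 (SE 0.15, edgeR adjusted p 0.00504). Without animals K and M it was -0.75 (edgeR adjusted p 0.0435). With the block, these 2 granule cell genes thus went opposite ways.

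The narrowest markers stayed near their homogenate level on average and scattered by animal. Gabra6 in IP had 5.62, 11, 9.45 and 3.14 CPM in tau animals and 10.9, 9.11 and 6.6 in EYFP animals, with ratios from 0.372 (B) to 1.81 (K). Its log2 fold change was -0.18 (SE 0.38, edgeR adjusted p 0.754), and with the animal as a block -0.01 (SE 0.22, edgeR adjusted p 0.984). Pcp2 in IP had 11.5, 26.4, 21.5 and 4.86 CPM in tau animals and 23.9, 13.8 and 9.58 in EYFP animals, with ratios from 0.386 (B) to 1.6 (M). Its log2 fold change was -0.08 (SE 0.43, edgeR adjusted p 0.912), and with the animal as a block 0.03 (SE 0.19, edgeR adjusted p 0.927). The ratio was above 1 in 4 of 7 animals for Gabra6 and in 3 of 7 for Pcp2, and no member had a ratio below 1 in all 7 animals (19.8% of all genes) or above 1 in all 7 (12.6%).

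The other members gave similar values. Neurod1 in IP ran from 4.88 (M) to 21 CPM (C) with a log2 fold change of -0.01 (SE 0.35), and Cbln1 from 20.9 (B) to 50 CPM (H) with -0.15 (SE 0.17). Car8 ran from 19.8 (M) to 81.2 CPM (C) with -0.33 (SE 0.32), Calb1 from 66.8 (M) to 181 CPM (I) with 0.23 (SE 0.26), and Pvalb from 276 (B) to 679 CPM (M) with 0.13 (SE 0.14). Their edgeR adjusted p-values lay between 0.472 and 0.986 in this fit without the block, and between 0.185 (Calb1) and 0.774 (Neurod1) with it. With the block Car8 was at -0.28 (SE 0.16) and Calb1 at 0.30 (SE 0.16). The IP levels kept a wide span, at least 3-fold for 6 of 9 members against 26.1% of all genes.

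Animal B had the lowest ratio for 9 of 9 members, from 0.324 for Cbln3 to 0.697 for Zic1. The lowest ratio fell in animal B for 42.4% of all genes. B also had the highest ratio of the 10 summed noradrenergic genes, 22.7, where the other tau animals had 13.8 (C), 12.6 (L) and 3.26 (M) and the EYFP animals 1.76 (H), 1.57 (I) and 1.61 (K). The sums of oligodendrocyte, astrocyte and microglial genes had their lowest ratios in B as well, 0.3, 0.404 and 0.472, all genes of these lists being detected. The IP RNA of B had the lowest concentration, 0.1 ng per microlitre against 0.2 to 2.8 in the other IP libraries. Its edgeR scaling factor was the lowest too, 0.8521 against 0.9736 to 1.0463 in the other IP libraries, and these CPM ratios do not use that scaling. The parts of enrichment strength, RNA concentration and scaling in the cerebellar ratios were not tested.

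**Figure D4:**
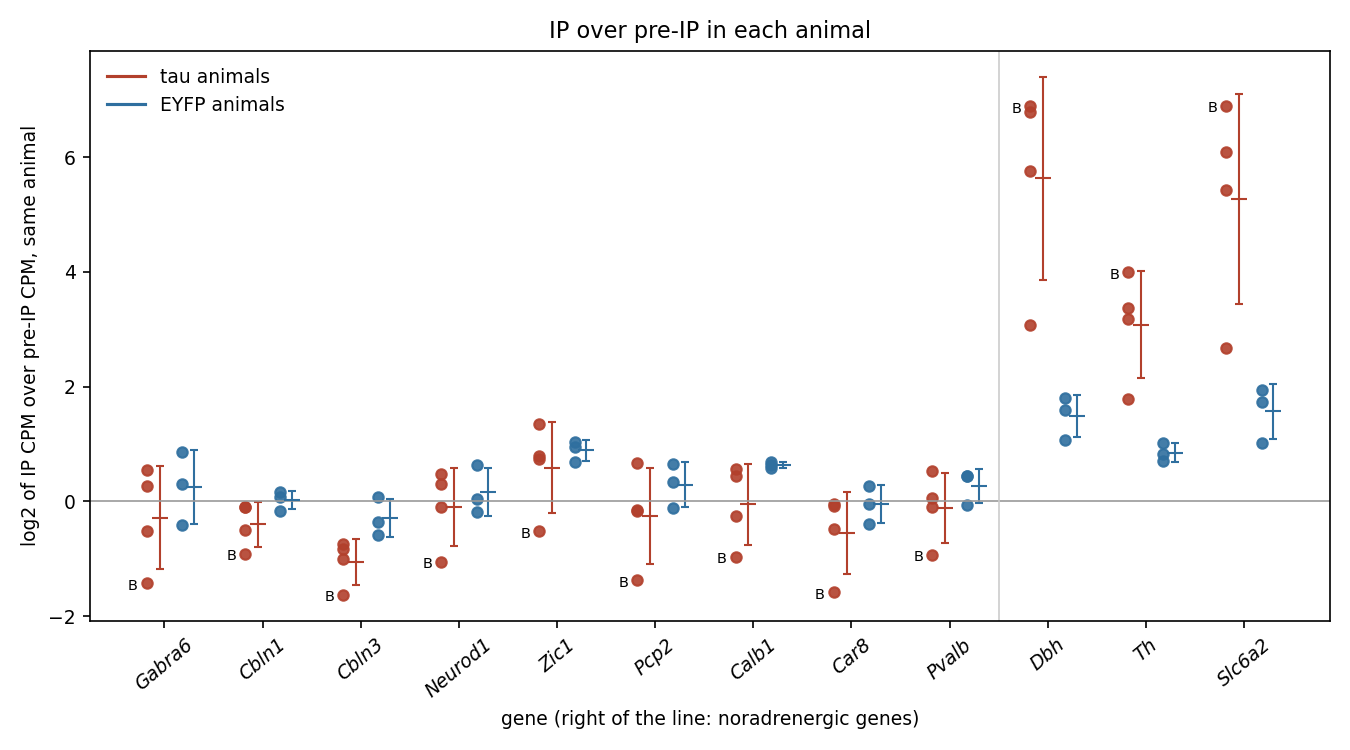
Log2 of IP CPM over pre-IP CPM of the same animal (vertical axis) for the 9 genes and, right of the grey line, Dbh, Th and Slc6a2; each point is an animal, tau red (4) and EYFP blue (3), the dash and bars give mean ± SD, and B marks animal B. The 9 genes scatter around 0 with B lowest in each, Cbln3 and Calb1 have no overlap between the groups, and the noradrenergic genes lie above 0 in all animals.

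Further genes of the same cells came from lists drawn up with earlier results known. Of all genes, 14.7% were called lower and 16.3% higher in IP. Of 12 further granule genes 2 fell and 0 rose. These were Slc17a7, the vesicular glutamate transporter VGLUT1, at -0.84 (SE 0.14, edgeR adjusted p 0.000441) and Chn2, a Rac GTPase-activating protein, at -0.44 (SE 0.15, edgeR adjusted p 0.038). Of 14 further Purkinje genes tested 3 fell and 0 rose, so that in this fit, without the block, the shares called lower in both lists were near that of all genes. These were Rgs8, a regulator of G protein signalling, at -1.02 (SE 0.17, edgeR adjusted p 0.000455), Homer3, a postsynaptic scaffold, at -0.70 (SE 0.19, edgeR adjusted p 0.0109), and Lhx5, a factor of early Purkinje cells, at -0.65 (SE 0.21, edgeR adjusted p 0.0291). Of 7 genes of other cerebellar cells 0 were called, with 2 at an unadjusted p under 0.05. The medians of the 3 lists were -0.41, -0.12 and -0.16, beside -0.004 for all genes. All 10 noradrenergic genes rose, with a median of 2.37. With the animal as a block 5 of 12, 4 of 14 and 1 of 7 genes of the 3 lists fell and 0, 1 and 0 rose. In the block fit 3121 of all 18792 genes fell and 2998 rose. With the block, the shares called lower were thus above that of all genes in the granule and Purkinje lists and below it in the third list. Of the 9 members 1 fell and 1 rose with the block. Because the lists were drawn up with earlier results known, these shares describe the listed genes only.

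None of the 9 genes passed the test between tau and EYFP immunoprecipitates. The edgeR log2 fold changes of tau over EYFP in IP ran from -0.40 (Cbln3, SE 0.44) to 0.13 (Pcp2, SE 0.50), with 8 negative, a median of -0.13 and -0.077 for all genes. The smallest unadjusted p was 0.245, for Calb1, at an edgeR adjusted p of 0.646. No member was called by DESeq2 or limma voom or had an unadjusted p under 0.05 with these tools. Of all 19472 genes tested 0% passed in edgeR, and the groups did not overlap for 0 of 9 members against 17.9% of all genes.

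The ratios of IP over pre-IP differed between treatments without overlap for 2 of 9 members, Cbln3 and Calb1, against 13.7% of all genes. Calb1 ratios were 0.512 in B, 0.843 in C, 1.48 in L and 1.36 in M, and 1.49 in H, 1.55 in I and 1.61 in K, so that tau animal L and EYFP animal H nearly touched. For Cbln3 every tau animal was at or below 0.597 and every EYFP animal at or above 0.667. The difference itself, the interaction of treatment and fraction, was -0.68 for Calb1 (SE 0.50, edgeR adjusted p 0.858) and -0.59 for Cbln3 (SE 0.69, edgeR adjusted p 0.92). All 9 interaction estimates were negative (median -0.41, -0.050 for all genes), and 0 of 9 were called. Estimates were negative as well for 6 of 6 astrocyte (median -0.50), 6 of 6 oligodendrocyte (-0.59), 6 of 6 microglial (-0.57) and 4 of 4 choroid plexus and ependymal genes (-0.82). All 10 noradrenergic estimates were positive (median 2.82), and of the 6 general neuronal genes 3 were negative and 3 positive. Without the block, 0 of 9 members had an unadjusted p under 0.05 in edgeR, DESeq2 or limma voom. Of all 20495 genes 0% passed. With the animal as a block the estimates were -0.58 (SE 0.28, edgeR adjusted p 0.596) for Calb1 and -0.66 (SE 0.24, edgeR adjusted p 0.531) for Cbln3, the latter with an unadjusted p of 0.0171, the 1 of 9 under 0.05.

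Summed over the 5 granule members, log2 IP over pre-IP in tau animals was -0.38 ± 0.50 (SD, n = 4). In EYFP animals it was 0.09 ± 0.19 (SD, n = 3). Over the 4 Purkinje members, of which Pvalb made up most counts, it was -0.15 ± 0.63 and 0.30 ± 0.20. The groups overlapped for both sums. Without animal B the tau means were -0.14 and 0.14.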

How the data were processed

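RNA was measured in an IP and a pre-IP library of each of 7 mice. The authors deposited raw counts of reads per gene, as whole numbers. The submitters' processing notes name FastQC, Trim Galore, STAR and featureCounts and the builds GRCm38 and mm10. Whether counting used strand, and how multi-mapping reads were treated, is not given in the sources used here. The deposited sample sheet gives the percent of high-quality reads, RNA integrity and RNA concentration per library, per the file headers. Empty cells break the table's header line, and the named cells were taken in order; the tau construct counts equalled those of the sheet in 14 of 14 libraries. Symbols were joined from the deposited gene table by identifier. Starts and ends of genes equalled GENCODE M21 for 50924 genes and differed for 0. Exons for overlaps, and gene lengths, came from the deposited gene table.

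CPM were counts over library totals. Genes were tested in edgeR 4.0.16 (R 4.3.3) by quasi-likelihood F tests with filterByExpr, TMM scaling (trimmed mean of M-values) and Benjamini-Hochberg adjustment over all genes tested, at 0.05. IP was compared with pre-IP over 14 libraries with treatment as an additive term, treatments within each fraction, and the interaction over 14 libraries. The standard error was the log2 fold change over the square root of F. The animal letter of the titles pairs fractions of the same animal: deviations from group means correlated by 0.15 to 0.36 in the 7 animals. Each library is another animal or fraction, per the labels, but nothing states separate litters. For treatments within a fraction, p-values thus measure the spread between these animals. Fits over 14 libraries without the animal block took the fractions of an animal as independent, so their p-values measure the spread between libraries. In IP against pre-IP the SE was 0.34 without and 0.15 with the block for Cbln3. It was 0.34 and 0.17 for Zic1, and 0.14 in both fits for Pvalb. Alternatives were the animal as replicate block, DESeq2 1.42.0 (test and size factors), limma voom 3.58.1, no filter, a mean of at least 50 counts, the library-number range as covariate, a single fit, each treatment alone and leaving out each animal.

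On simulated counts edgeR recovered 93.9% of genes changed by 2 on the log2 scale in IP against pre-IP (18385 genes), 58.5% between treatments in IP (18727 genes), 89.4% in pre-IP (18854 genes) and 52% for the interaction (20026 genes). Of all calls 3.66%, 4.69%, 7.73% and 6.67% were false, in the same order. The members' own main estimates were at most 0.74 in size, and the simulated libraries carried no pairing by animal. The recovery therefore does not show what could be found for the members.

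The members, the gene lists and the rules were chosen with earlier results of these data known. The text names the 9 members throughout, up to 3 other listed genes per direction that were called in IP against pre-IP by size of change, the 5 closest profiles of Gabra6 and Pcp2, and Dbh, Th and Slc6a2. Gabrd, Barhl1, Dner, Aldoc and Gjd2 are outside this rule. Promoter windows came from RefSeq (GRCm38.p6).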

Additional observations from a re-analysis of the deposited data

How the results depend on the processing

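Of the members' log2 fold changes, 136 of 153 alternative values in IP against pre-IP, 114 of 135 for treatment in IP, 126 of 135 in pre-IP and 131 of 135 for the interaction kept their direction and side of the threshold. In IP against pre-IP, 2 members were called with the animal as replicate block, 1 with the library-number range as covariate and 1 without animals K and M (chosen after seeing the data), and 0 when any single animal was left out. The block changed no other call of a member. In EYFP animals alone 1218 genes were called. Genes called for treatment in IP numbered 342 by DESeq2, 113 with no filter, 8 without K and M, 202 in the single fit and 0 to 128 leaving out each animal; in pre-IP 44 with no filter, 1 without K and M and 0 to 1; for the interaction 52 by DESeq2, 67 with no filter, 13 without K and M and 0 to 56. The cause was not tested. No member was called in these 3 comparisons under any alternative.

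Signs that changed belonged to values under their standard error. In IP against pre-IP these were Neurod1 at 0.09 with the library-number range, 0.07 with the block and 0.08 in EYFP animals, Pcp2 at 0.03 with the block and 0.26 in EYFP animals, Gabra6 at 0.08 and Cbln1 at 0.04 in EYFP animals, Calb1 at -0.09 in tau animals and Pvalb at -0.02 without K and M. For treatment in IP they were Neurod1 at 0.09, Car8 at 0.04 and Zic1 at 0.21 by voom, Neurod1 at 0.05 and Zic1 at 0.13 with the library-number range, and Neurod1 at 0.06 and Car8 at 0.10 without K and M. In pre-IP voom gave -0.12 for Neurod1 and -0.05 for Zic1, and for the interaction 0.16 and 0.23. Leaving out each animal gave, in IP against pre-IP, -0.28 to 0.0049 for Gabra6, -0.07 to 0.11 for Neurod1 and -0.18 to 0.10 for Pcp2. For treatment in IP it gave -0.42 to 0.08 for Gabra6, -0.39 to 0.05 for Cbln1, -0.43 to 0.23 for Neurod1, -0.55 to 0.18 for Zic1, -0.19 to 0.53 for Pcp2, -0.40 to 0.19 for Car8 and -0.32 to 0.04 for Pvalb. In pre-IP it gave -0.05 to 0.86 for Gabra6, -0.10 to 0.63 for Cbln3, -0.25 to 0.48 for Neurod1 and -0.22 to 0.40 for Zic1, and for the interaction -0.31 to 0.05 for Neurod1 and -0.41 to 0.02 for Zic1. Each of the 9 genes had at least 132 counts in every library.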
